A study of Mus musculus with 67 samples.

Results

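Accessibility of regulatory elements was compared between motor neuron progenitors (pMN) and p3 progenitors on day 6 of an in vitro differentiation of mouse embryonic stem (ES) cells. The comparison used the 8 day 6 samples of these types, 4 of pMN and 4 of p3, out of 67 samples in the series. All came from HM1 ES cells, a mouse line, which were taken through a neuromesodermal progenitor (NMP) state to spinal cord identity in retinoic acid and the Smoothened agonist SAG, both added from day 3. For each type, 2 samples had been grown in 100 nM SAG and 2 in 500 nM SAG, labelled replicate 2 and replicate 3 at each concentration. All 8 samples therefore shared SAG and retinoic acid, and the comparison held no culture without them. Values of other types are given beside these. The more dorsal progenitors p2 came from 10 and 100 nM SAG, p0-1 from 0 and 10 nM, and NMPs of day 3 from 0 nM. Their means and SDs pool the concentrations, and against these types cell type and SAG cannot be fully told apart. Cells were fixed, transposed, stained for transcription factors and sorted by flow cytometry, a procedure named CaTS-ATAC. In the sort, p3 cells were SOX2+ NKX2.2+ OLIG2- and pMN cells were SOX2+ OLIG2+ NKX2.2-, so cells with both OLIG2 and NKX2.2 were in neither group. The cell types are therefore defined by 3 proteins in cells of 1 line, and neurons that had lost SOX2 were outside both gates.

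In the ventral neural tube, Sonic hedgehog (Shh) from the notochord and floor plate patterns progenitors into domains. The p3 domain lies next to the floor plate, expresses NKX2.2 and gives rise to V3 interneurons. The neighbouring pMN domain expresses OLIG2 and gives rise to motor neurons and later to oligodendrocyte precursors. OLIG2, NKX2.2 and PAX6 belong to a network of transcriptional repressors in which factors of adjacent domains repress each other. FOXA2 is a forkhead factor of the floor plate and the endoderm, known for its capacity to bind closed chromatin. An accessible element in an ATAC-seq experiment is a stretch of DNA open to the transposase, often a promoter or an enhancer, and its read count measures how open it is over the cells of the sample.

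Depth was between 12529289 and 25148394 reads in elements per sample, lowest in p3 at 100 nM, replicate 2. Values are given as normalized counts, that is, reads divided by the size factor of the sample, in the order 100 nM replicate 2, 100 nM replicate 3, 500 nM replicate 2 and 500 nM replicate 3. Samples of a type were more alike within a replicate number than within a SAG concentration. Those with the same replicate number but different SAG concentrations had squared Pearson correlations across elements of 0.967 to 0.983, whereas the 2 replicates at the same concentration had 0.892 to 0.923. Between pMN and p3 the squared correlation was 0.315 to 0.626 over 16 pairs. No pair was as alike as counting noise alone would make it, the lowest chi-square per element being 2.97. The study describes its replicates as independent differentiations, so the 4 samples of a type stand for 2 differentiations, each at both concentrations, and p values treat them as 4. Within a concentration and replicate number pMN and p3 shared a dish, by the study's account of its sorting. The sample descriptions number the day 6 replicates of these types 1 and 2 where the titles, followed here, have 2 and 3.

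Sequences of elements at the extremes of the comparison and at loci of the patterning network are shown first, to place the motif counts given later in real DNA. Each is the central 300 bp of an element on the plus strand of GRCm38 (mm10). In elements more open in p3, capitals mark matches to forkhead (FOX) letters, TGTTTAC or TGTTTGC or TATTTAC on either strand. The first is intergenic, 45.0 kb upstream of the Foxa2 transcription start site (TSS), and the other 2 were the most unequal in the direction of p3.
Foxa2 upstream element, chr2:148091800-148092099: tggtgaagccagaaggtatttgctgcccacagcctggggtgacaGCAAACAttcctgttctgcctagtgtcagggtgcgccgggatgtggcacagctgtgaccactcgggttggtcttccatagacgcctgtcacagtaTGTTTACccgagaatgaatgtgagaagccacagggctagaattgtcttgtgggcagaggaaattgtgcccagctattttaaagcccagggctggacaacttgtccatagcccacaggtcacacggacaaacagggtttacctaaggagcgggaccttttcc
Element nearest Gm8096, chr8:28281920-28282219: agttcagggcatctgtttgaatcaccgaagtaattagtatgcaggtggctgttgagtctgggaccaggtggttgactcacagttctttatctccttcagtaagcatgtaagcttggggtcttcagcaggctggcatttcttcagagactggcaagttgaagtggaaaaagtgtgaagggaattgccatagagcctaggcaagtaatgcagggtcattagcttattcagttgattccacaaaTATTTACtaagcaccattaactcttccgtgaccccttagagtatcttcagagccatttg
Element nearest Mir466f-4, chr13:71373300-71373599: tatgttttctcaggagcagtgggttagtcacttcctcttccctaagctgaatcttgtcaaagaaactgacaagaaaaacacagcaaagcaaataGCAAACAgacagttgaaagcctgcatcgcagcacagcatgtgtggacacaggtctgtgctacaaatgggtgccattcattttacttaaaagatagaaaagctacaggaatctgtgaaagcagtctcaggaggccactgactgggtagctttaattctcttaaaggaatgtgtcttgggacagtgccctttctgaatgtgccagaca
In elements less open in p3, capitals mark SOX letters (ACAATG or ACAAAG) and E-box letters (CAGATG or CATATG or CAGCTG) on either strand. Shown are an element of Pax6 in the last intron of Elp4 and the element most unequal in the direction of pMN.
Pax6 element, chr2:105720159-105720458: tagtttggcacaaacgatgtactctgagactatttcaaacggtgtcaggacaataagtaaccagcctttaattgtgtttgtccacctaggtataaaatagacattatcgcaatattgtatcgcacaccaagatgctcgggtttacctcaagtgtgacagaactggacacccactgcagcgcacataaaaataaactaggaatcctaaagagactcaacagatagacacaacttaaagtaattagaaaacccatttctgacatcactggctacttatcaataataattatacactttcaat
Element nearest Nsmaf, chr4:6600748-6601047: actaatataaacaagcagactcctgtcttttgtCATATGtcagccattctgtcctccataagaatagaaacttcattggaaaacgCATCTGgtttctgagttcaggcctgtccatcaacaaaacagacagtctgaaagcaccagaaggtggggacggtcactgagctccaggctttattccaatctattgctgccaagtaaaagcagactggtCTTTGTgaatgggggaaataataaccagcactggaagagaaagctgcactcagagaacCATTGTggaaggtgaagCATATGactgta
The Foxa2 window held 2 FOX matches and those nearest Gm8096 and Mir466f-4 held 1 each. The Nsmaf window held 5 matches to either motif and the Pax6 window 0.

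The sorted identities were compared with the accessibility of marker genes. Elements at the TSS of Nkx6-1 and Sox2, which both types express, differed by less than the spread between samples. The Nkx6-1 promoter had 2671, 2572, 2571 and 2530.4 normalized counts in pMN and 2529, 2475, 2569.7 and 2510.0 in p3, and the groups overlapped (log2 ratio -0.04, adjusted p = 0.575). At the Sox2 promoter the log2 ratio was -0.08 (adjusted p = 0.289). Olig2, which defines pMN, had no tested element classed as promoter. Its element nearest the TSS, in its only intron and named after its values were seen, had 2361, 2338, 2302 and 2298 counts in pMN and 1060.3, 1131, 925 and 904 in p3, without overlap. The log2 ratio of p3 to pMN was -1.21 (adjusted p = 7.48e-06). The element at the TSS of Olig1 differed in the same direction, with a log2 ratio of -0.90 (adjusted p = 3.42e-05). Elements at Nkx2-2 were not analysed here. At its relative Nkx2-9, also a p3 gene, the promoter had a log2 ratio of -0.13 (adjusted p = 0.404) and the groups overlapped. The elements nearest the TSS of Sim1, a V3 gene, and Mnx1, a motor neuron gene, did not pass the test either, with log2 ratios of 0.17 and -0.04 (adjusted p = 0.138 and 0.788).

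The central comparison asked which elements differ between the types once SAG is taken into account. Elements were tested where the mean over the 8 samples exceeded 100 normalized counts, a limit that an element open in 1 type alone can pass. Of 33667 such elements 3739 were called, which means that the adjusted p was below 0.01 and that the mean normalized counts differed by more than 4-fold. This is 11.1% of the elements tested. In sorted bulk samples, more cells with an element open and a more open element in each cell cannot be told apart. More open in p3 were 1696 (5.04%) and less open in p3 were 2043 (6.07%). The 4 samples of pMN and the 4 of p3 did not overlap at 14699 elements, 43.7% of those tested, and at all 3739 called ones. Elements more open in p3 had a median log2 ratio of 2.93 and a median of 38.3 normalized counts in pMN against 289 in p3. Those less open in p3 had a median log2 ratio of -2.58, with medians of 333 in pMN and 52.4 in p3. Beyond a fold change of 16 there were 275 elements in the direction of p3 and 116 in that of pMN. The threshold separated like values, since the log2 ratio nearest to it among elements with an adjusted p under 0.01 was 2.001 inside and 1.998 outside. With a fold change above 2 the counts were 3338 and 5149. Without the p3 sample at 500 nM, replicate 3, the number more open in p3 was 1100 in place of 1696, and that less open was 2004.

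**Figure D1:**
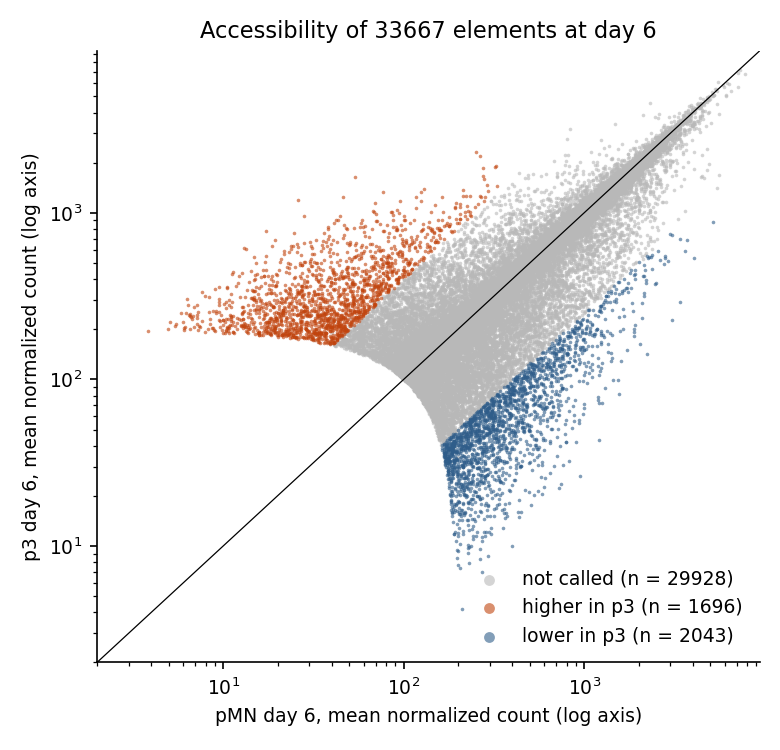
Mean normalized count of each tested element in the 4 p3 samples against the 4 pMN samples of day 6, both on log axes, with the line of equality. Called elements, 1696 higher and 2043 lower in p3, lie off the line by more than 4-fold, and the 29928 others include the elements with the highest counts in both types.

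The size of the difference was described in each differentiation, although the calls had used the samples of both. In replicate 2 the elements more open in p3 had a median log2 ratio of 3.05 and in replicate 3 of 2.85, and all 1696 had a fold change above 2 in each, which the call on all 8 samples largely fixes. For elements less open in p3 the medians were -2.42 in replicate 2 and -2.83 in replicate 3, and all 2043 passed 2-fold in each. Levels within a type, on the other hand, depended on the replicate number at elements more open in p3. In p3, 1476 of these 1696 (87.0%) were higher in replicate 3 than in replicate 2 at both SAG concentrations, and in pMN it was 1505 (88.7%). Over all tested elements the shares were 41.1% and 37.4%. The median in pMN was 23.3 and 29.1 normalized counts in replicate 2 and 41.3 and 56.1 in replicate 3, still below the p3 medians of 220.1, 320.4, 217 and 407. Elements less open in p3 were lower in replicate 3 than in replicate 2 at both concentrations for 1244 of 2043 (60.9%) in p3 and for 784 (38.4%) in pMN, beside 37.2% and 45.9% of all tested elements. A fit with replicate number as a block called 3784 elements, with the fold changes left as they were, so only the adjusted p could move.

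The elements with the highest log2 ratio of p3 to pMN were nearly closed in pMN. The highest, chr8:28281709-28282431, was intergenic and nearest the predicted gene Gm8096. It had 3.59, 3.76, 1.00 and 7.01 normalized counts in pMN and 122, 211, 142 and 311 in p3, a log2 ratio of 5.68 (adjusted p = 3.83e-05). All 4 p3 samples were far above every pMN sample, and p3 replicate 3 was above p3 replicate 2 at each concentration. An intergenic element at chr13:71003402-71004656, nearest Mir466f-4, was larger in absolute terms. Its counts were 5.38, 31.9, 8.02 and 58.4 in pMN and 879, 1415, 775 and 1687 in p3 (log2 ratio 5.52). A second element nearest Mir466f-4, at chr13:71373023-71373877, had a log2 ratio of 5.60. Others among the 8 highest were intergenic near Gm4668 (5.56) and intronic in Me3 (5.49), in Dscam (5.46) and in Exoc4 (5.45). Me3 encodes a mitochondrial malic enzyme, Dscam a neural adhesion molecule and Exoc4 a subunit of the exocyst. The Foxa2 upstream element shown above was sixth.

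At the other end, the lowest log2 ratio belonged to the intergenic element chr4:6600577-6601219, nearest Nsmaf. It had 248, 186, 200.4 and 203 counts in pMN and 4.95, 6.10, 4.62 and 0.971 in p3 (log2 ratio -5.65, adjusted p = 8.22e-06). It was also low in the other progenitors of day 6, with 32.7 ± 11.5 (SD, n = 6) in p2. The other 7 lowest elements had log2 ratios of -5.30 to -4.99 and lay near Gask1b and Cops8 and in introns of Esr1, Tshr, Tmem117, Fgf12 and Hmcn1. Esr1 encodes an estrogen receptor, Tshr the thyrotropin receptor and Fgf12 an intracellular FGF homologous factor. The element in an intron of Hmcn1, chr1:150587238-150588125, had 942, 1042, 559 and 436 counts in pMN against 36.3, 41.7, 6.93 and 8.74 in p3. In this element both types had lower counts at 500 nM than at 100 nM, without overlap between the concentrations.

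Called elements were rarely at promoters. Of 6842 tested elements classed as promoter-TSS, 20 were more open and 19 less open in p3, 0.570% together, whereas 13.8% of the 26825 other elements were called. The share was 17.7% of intergenic, 14.2% of intronic and 2.20% of exonic elements. With distance to the nearest TSS it was 0.449% within 1 kb, 10.7% at 1 to 10 kb, 15.4% at 10 to 50 kb, 18.7% at 50 to 100 kb and 22.1% at 100 to 200 kb. Beyond 200 kb it was 22.8%, with 192 more open and 351 less open in p3 of 2379 tested. Called elements within 50 kb of each other changed in the same direction in 377 of 548 adjacent pairs (68.8%), against 54.6% of the 3171 adjacent pairs farther apart.

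Foxa2 was the gene with most elements more open in p3, 6 of 15 tested, spread over 206.4 kb with 0 less open. It was followed by Gm8096 with 5 of 7 and 1 less open, and by Crim1, a BMP antagonist, D030024E09Rik, Lmo7, Mir6344 and Olfm4 with 4 each. The eighth, 1700113H08Rik, had 3 more open and 4 less open of 11. Lmo7 and Olfm4 also had 3 elements less open each. In the other direction, Nrxn3, a synaptic adhesion gene, Tenm3, a teneurin of neuronal wiring, and Wwox, an oxidoreductase gene, each had 7 elements less open in p3, of 17, 21 and 15 tested, while Tenm3 and Wwox also had 1 more open each. Cdh11, a cadherin, Fzd7, a Wnt receptor, Alpk1, D230030E09Rik and 9330117O12Rik had 5 each, and for Alpk1 these were 5 of 6 tested.

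At genes of p3 progenitors and V3 neurons, 12 of 46 tested elements were called, 8 more open and 4 less open in p3, beside 11.1% of all elements. The median log2 ratio of the 46 was 0.42, against 0.004 over all tested. All 8 of the more open elements were at Foxa2 (6), Foxa1 (1) and Nkx2-9 (1). Foxa2 is a forkhead gene of the floor plate and endoderm and Foxa1 its close relative. The upstream Foxa2 element at chr2:148091524-148092376 had 5.38, 15.0, 3.01 and 45.5 counts in pMN and 294, 973, 399.6 and 1427 in p3, with a difference of 4.79 ± 0.60 (SE) on the variance-stabilized (VST) log2 scale that the test used (log2 ratio 5.49, adjusted p = 2.67e-04). The groups did not overlap, and in both types replicate 3 was above replicate 2 at each concentration. This call was lost with voom and in the 500 nM samples alone (adjusted p = 0.0110 to 0.0243), at a log2 ratio of at least 5.23.

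Around Foxa2 the 6 called elements lay between 160.6 kb downstream and 45.0 kb upstream of the TSS, and 9 tested elements were not called. The farthest upstream, at 104.4 kb, did not pass the test (log2 ratio 0.57, adjusted p = 0.122). An element 32.2 kb upstream had 26.9, 50.7, 21.0 and 86.4 counts in pMN and 673, 1598, 681 and 2036 in p3 (log2 ratio 4.75). At 158.0 kb downstream, another had a log2 ratio of 5.10, with no more than 39.7 counts in any pMN sample and at least 464 in any p3 sample. The Foxa2 promoter, in contrast, was open in both, with 221, 290.1, 249 and 348 in pMN and 1240.0, 1927, 1268 and 2215 in p3. It was called as well, with a log2 ratio of 2.59 (adjusted p = 3.91e-05). In NMPs at day 3 this promoter had a mean of 1494 counts (n = 3), within the range of the p3 samples, while the upstream element had 6.74. Only 1 tested Foxa2 element, 65.9 kb downstream, was lower in p3 with an adjusted p under 0.01, at a log2 ratio of -1.14, short of the 4-fold limit. At Foxa1 an intergenic element had 0, 13.1, 7.01 and 15.2 counts in pMN and 143, 298, 152 and 437 in p3, again without overlap. Its log2 ratio was 4.87. An intronic element annotated to Foxa1 went the other way, with a log2 ratio of -2.56. Nkx2-9 had 1 called element, 5.4 kb upstream, at 2.09, and that call was lost in 4 of 24 alternatives. The V3 genes Sim1 and Uncx and the proneural gene Neurog3 had 1 element each that was less open in p3, with log2 ratios of -2.17, -2.35 and -2.38, and 0 more open. The call at Sim1 was lost in 3 alternatives.

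The floor plate borders the p3 domain, so its genes were examined as a list of markers. Of 54 tested elements at 10 genes, 10 were more open and 3 less open in p3, 24.1% together beside 11.1% of all tested, with a median log2 ratio of 0.56. The summed normalized count of the list was 17742 to 23125 in pMN and 29239 to 37510 in p3, and no element was at 0 in all samples of a type. Whether floor plate cells took part in the p3 samples was not tested. Shh, the morphogen gene, had 3 of its 4 tested elements more open in p3. The one 96.5 kb upstream, in an intron of 9530036O11Rik, had 17.9, 58.2, 15.0 and 103 counts in pMN and 571, 921, 558 and 1136 in p3 (log2 ratio 4.04, adjusted p = 2.54e-04). At 9.6 kb upstream the counts were 6.28, 56.3, 10.0 and 70.1 and 148, 862, 203 and 1229. Here p3 replicate 3 was more than 5-fold above replicate 2 at both concentrations, and the call (log2 ratio 4.10, adjusted p = 0.00631) was lost in 8 of 24 alternatives, among them those without either p3 sample of replicate 3. The element 2.8 kb upstream, at 2.02, lost its call in 7.

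Ferd3l, a bHLH gene of the floor plate, had a called promoter. It had 17.0, 39.4, 27.1 and 70.1 counts in pMN and 585, 836, 545 and 921 in p3, without overlap (VST difference 3.94 ± 0.32 (SE), log2 ratio 4.23, adjusted p = 2.97e-05). Intronic elements of Corin, a serine protease gene, and Lmx1b, a LIM homeodomain gene, had log2 ratios of 4.16 and 2.67, and an intergenic element near Spon1, a secreted adhesion protein gene, 3.72. Slit1, a guidance ligand gene, had 2 called elements, the larger at 2.02, and that call was lost in 8 of 24 alternatives. Those less open in p3 included 1 element each annotated to Lmx1a (-2.47), a LIM homeodomain gene, and Foxj1 (-3.25), a gene of motile cilia.

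**Figure D2:**
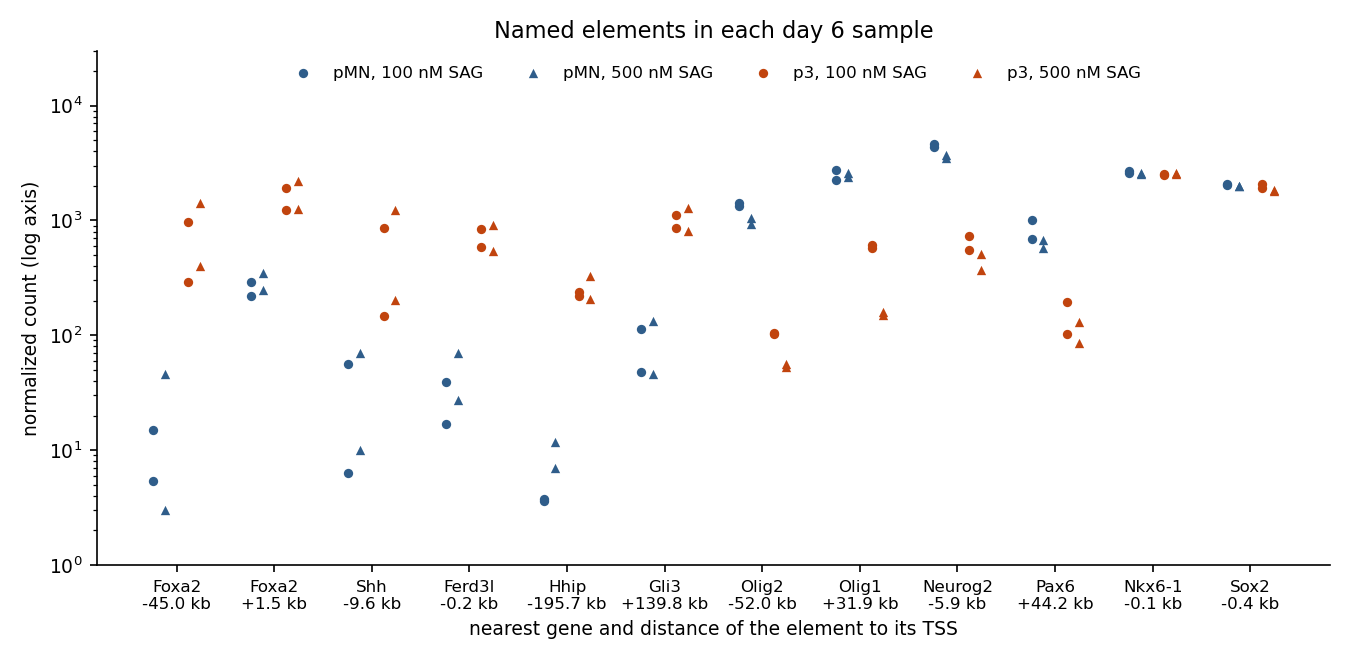
Normalized count (log axis) of 12 elements in each of the 4 pMN and 4 p3 samples of day 6, circles for 100 nM and triangles for 500 nM SAG, labelled by nearest gene and distance to its TSS. The p3 points lie above all pMN points for the 6 elements at Foxa2, Shh, Ferd3l, Hhip and Gli3, below them for the 4 at Olig2, Olig1, Neurog2 and Pax6, and among them for the promoters of Nkx6-1 and Sox2.

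At genes of pMN and motor neurons, 16 of 51 tested elements (31.4%) were less open in p3, beside 6.07% of all tested, and 0 more open, with a median log2 ratio of -1.40. These were 4 each at Olig1, Olig2 and Lhx3, and 1 each at Mnx1, Lhx4, Neurog2 and Slc18a3. The Olig2 element 52.0 kb upstream was the most unequal. It had 1341, 1431, 933 and 1045 counts in pMN and 102, 104, 53.1 and 56.3 in p3, without overlap (VST difference -3.75 ± 0.11 (SE), log2 ratio -3.91, adjusted p = 3.41e-06). This element was not particular to pMN, as p2 at day 6 had 1072 ± 97.0 (SD, n = 6) and p0-1 had 887 ± 196 (SD, n = 5). The Olig2 element 9.2 kb downstream was instead low in p2 as well, and had 315, 635, 321 and 409.9 counts in pMN, 109, 87.5, 50.8 and 47.6 in p3 and 86.3 ± 34.5 (SD, n = 6) in p2. Each of the 8 tested elements of Olig1 and each of the 8 of Olig2 had a log2 ratio below 0, from -2.74 to -0.75 and from -3.91 to -1.04.

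Neurog2, a proneural gene, had high counts in pMN at its called element. Its element 5.9 kb upstream had 4623, 4375, 3725 and 3523 in pMN and 726, 549, 505 and 372 in p3 (log2 ratio -2.92, adjusted p = 5.78e-06). Lhx3, a LIM homeodomain gene of motor neurons and V2 interneurons, had 4 called elements between 10.0 kb and 32.8 kb from its TSS. The farthest had 801, 1099.5, 672 and 1177 counts in pMN and 104, 142, 114 and 134 in p3, while the element nearest its TSS, at 279.5 ± 17.8 (SD, n = 4) in pMN and 185 ± 29.6 (SD, n = 4) in p3, had a log2 ratio of -0.60. Log2 ratios of the called elements of Mnx1, Lhx4 and Slc18a3, the last encoding the vesicular acetylcholine transporter and lying within Chat, were -2.54, -2.81 and -2.31. No element of Isl1, another motor neuron gene, passed the 4-fold limit, its 5 tested elements ranging from -1.89 to -0.05.

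Genes of the more dorsal domains p0 to p2 and their interneurons had 98 tested elements, of which 3 were more open and 11 less open in p3 (median log2 ratio -0.13). The share called was 14.3%, near the 11.1% of all tested elements. Pax6, a repressor of ventral fate in this network, had 5 tested elements with log2 ratios of -2.51 to -0.73. The element at its annotated TSS had 3303, 3288, 3223 and 3019 counts in pMN and 1593, 1966, 1484 and 1740.0 in p3, a difference of under 2-fold that was larger than the spread between samples (log2 ratio -0.92, adjusted p = 4.04e-05). A second Pax6 element classed as promoter had a log2 ratio of -1.99, just short of the 4-fold limit. The only called Pax6 element, shown above, had 1008, 689, 677 and 572 in pMN and 196, 102, 132 and 86.4 in p3, and 1267 ± 221 (SD, n = 6) in p2. Dbx1, a homeobox gene of p0, had the one of this list most unequal in the direction of pMN, an intergenic element with 321, 149, 224 and 80.6 counts in pMN and 21.4, 12.2, 4.62 and 4.86 in p3 (log2 ratio -4.17). It had higher counts in p0-1, 2152 ± 272 (SD, n = 5). Nkx6-2, Foxn4, Irx3, Pax3, Dbx2 and Gata3 also had elements less open in p3, with log2 ratios of -3.25, -2.89, -2.89, -2.34, -2.52 and -2.39. The 3 more open elements were intergenic, near Irx5 (4.20), Nkx6-1 (3.00) and Irx3 (2.53). Of the 19 tested Nkx6-1 elements the other 18 were not called.

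At Hedgehog pathway genes the share of called elements, 12.2%, was near the 11.1% of all tested. Of 49 elements 4 were more open and 2 less open in p3 (median log2 ratio -0.28). Hhip, which encodes a membrane antagonist of hedgehog ligands, had 1 of each. Its intergenic element at chr8:80253440-80253954 had 3.59, 3.76, 7.01 and 11.7 counts in pMN and 236, 219.7, 208 and 330.1 in p3 (log2 ratio 5.25, adjusted p = 7.91e-06). An element in an intron of Hhip had 749, 523, 576 and 476 in pMN and 41.2, 46.8, 24.3 and 14.6 in p3 (log2 ratio -4.20, adjusted p = 7.50e-06). At the latter p2 had 854 ± 189 (SD, n = 6), near pMN, and at the former 22.3 ± 18.5 (SD, n = 6). In Gli3, the main repressor among the GLI factors, the element at chr13:15602159-15604934 in intron 3 had 47.5, 114, 46.1 and 132 counts in pMN and 857, 1106, 802 and 1291 in p3 (log2 ratio 3.58), while the Gli3 promoter differed by -0.21 (adjusted p = 0.111). Disp1, needed for release of the ligand, had 2 elements more open in p3, at 3.91 and 3.56. Scube2, which aids that release, had 1 less open (-2.45). Gli2, the main activator, had 3 tested elements with log2 ratios of -1.51, -1.17 and -0.49, each with an adjusted p under 0.001, and none passed 4-fold. The element in a Gli2 intron that the study shows as open in p3 was not identified among them. The pathway targets Ptch1 and Gli1 had no called element, with log2 ratios from -1.15 to 0.17.

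Progenitor and Notch pathway genes had 71 tested elements, with 1 more open and 7 less open in p3 (median -0.35), and the 11.3% called was close to the 11.1% of all tested. The latter were at Sox1 and Sox3, which maintain neural progenitors, at the Notch target Hes5 and at the ligand genes Dll1 and Jag1. Near Hes5 an element of 221 bp had 254, 209, 208 and 177 counts in pMN and 19.8, 31.5, 20.8 and 20.4 in p3 (log2 ratio -3.20). Sox3 had -3.48, Dll1 -2.16 and Jag1 -2.19, and a receptor, Notch2, had 1 element more open (2.97). Gliogenic and temporal genes had 37 tested, of which 4 were less open in p3, at Nfia, Sox8 and Zbtb20, and 1 more open, at Lin28b, a share of 13.5% that was also near that of all tested elements. Nfia drives the switch to glial production in the spinal cord. Its element in intron 2 had 844, 842, 765 and 802 counts in pMN and 114, 81.4, 90.1 and 25.2 in p3 (log2 ratio -3.39, adjusted p = 5.40e-05). At genes whose loci were chosen for display by the study, which are not independent of these samples, 1 element of 33 was more open and 4 less open (15.2% called). All tested elements annotated to these genes were counted, and the elements that the study displays were not identified among them. Among them an intergenic element near Sp8, a zinc finger gene, had a log2 ratio of -3.18 and one in intron 1 of Rfx3, a regulator of cilia, -2.57.

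Axon guidance genes had 25 of 124 tested elements called (20.2%, beside 11.1% of all tested), 21 of them less open in p3 (median -0.34). Robo1 and Dcc had 4 each, Epha3, Epha5 and Nrp2 had 3 each, and Robo2, Robo3, Unc5c and Slit3 had 1 each. These encode receptors for guidance cues, apart from Slit3, which encodes a ligand of the Robo receptors. Near Robo1 the element at chr16:72610491-72611145 had 461, 181, 283 and 80.6 counts in pMN and 26.4, 10.2, 5.77 and 3.88 in p3 (log2 ratio -4.44), with replicate 3 below replicate 2 in both types. The commissural receptor gene Robo3 had -3.17. More open were 4, namely 2 at Plxna2 and 1 each at Robo2 and Epha4. The last had 2.69, 7.51, 5.01 and 14.0 in pMN and 145, 219.7, 150.1 and 318 in p3, a log2 ratio of 4.83. Retinoic acid pathway genes had 3 elements more open, 2 at the receptor gene Rarb and 1 at the retinal reductase gene Dhrs3, and 1 element less open, of 51 tested, a share of 7.84% that was below the 11.1% of all tested elements. In intron 2 of Rarb the counts were 6.28, 12.2, 7.01 and 18.7 in pMN and 143, 229.9, 159 and 358 in p3 (log2 ratio 4.33).

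Other cell types that a gate could hold were checked in the same way. Postmitotic neuron genes had 54 tested elements, 1 more open and 5 less open in p3, the same 11.1% as over all tested elements, with a median log2 ratio of -0.70 and summed counts of 28287 to 30126 in pMN and 15938 to 19784 in p3. The most unequal, near the neuronal RNA-binding protein gene Elavl4, had 294, 675, 319.6 and 495 counts in pMN and 37.9, 50.9, 13.9 and 17.5 in p3 (log2 ratio -3.89). Dcx, Nhlh2 and Neurod1, genes of young neurons, had the other 4. Whether differentiating cells took part in the pMN samples was not tested. None of 15 elements at NMP and mesoderm genes was called with limma, 4 having an unadjusted p under 0.05, and their summed counts were 3415 to 3883 in pMN and 4714 to 4851 in p3. Of the 24 elements at endoderm genes 16.7% were called, beside 11.1% of all tested. More open in p3 were 3, 1 at Gata4 (3.76) and 2 at Cxcr4 (up to 4.29), and 1 at Gata6 was less open (-2.36). Summed counts of this list were higher in pMN, 11626 to 12072 against 9868 to 10457. Of 54 elements at Hox genes, which mark position along the body axis, 1 was called, near Hoxb1 (2.26), and the summed counts of the types overlapped.

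**Figure D3:**
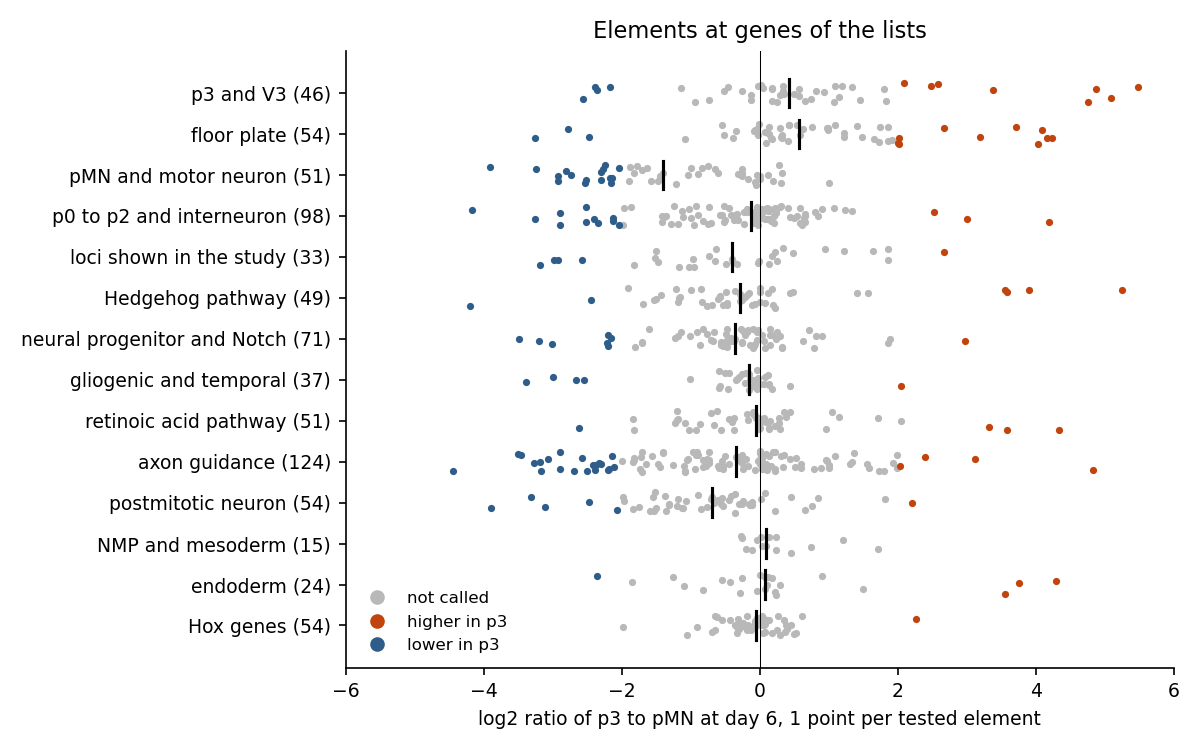
Log2 ratio of p3 to pMN at day 6 for each tested element annotated to a gene of 14 lists, with called elements coloured and the median of each list as a bar; the number of elements is in parentheses. Elements of pMN and motor neuron genes reach -3.91 with 0 called above 0, while those of floor plate genes and of p3 and V3 genes reach 4.23 and 5.49.

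Short motifs were counted in the central 300 bp of the elements on both strands, to describe what the called elements share in sequence. FOX letters were in 38.3% of the 1696 elements more open in p3 and in 10.4% of the 2043 less open, beside 12.2% of all 33667 tested and 13.8% of the 26825 tested outside promoters. The share grew with the size of the difference. It was 22.4% at log2 ratios of 1 to 2, 30.0% at 2 to 3, 39.4% at 3 to 4 and 63.3% above 4, where 275 elements were counted. On the side of pMN it was 9.5% below a log2 ratio of -4 and between 10.3% and 12.7% in the other ranges. In elements more open in p3, 39.1% of the 843 matches lay within 50 bp of the center, against 36.1% of 4175 in elements outside promoters and 31.4% of 226 in elements less open in p3. Elements more open in p3 that held FOX letters had a median log2 ratio of 3.27, and those without 2.78, with medians of 290.2 and 287 counts in p3 and of 32.6 and 41.0 in pMN.

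SOX letters were in 61.6% of elements less open in p3, in 49.2% of those more open and in 42.0% of the tested ones outside promoters. E-box letters were in 53.4%, 43.5% and 41.7% of the same groups. Both motifs are short, and SOX2, OLIG2 and NEUROG2 belong to the families known to bind such letters. Letters of the RFX family, GTTGCCA, were in 8.7% of elements more open in p3 and in 3.1% of those less open, beside 4.9% outside promoters, and unlike FOX letters their share did not follow the log2 ratio, with 8.5% at 1 to 2 and 8.0% above 4. In elements more open in p3 the share was 8.9% beside a FOX match and 8.6% without it. Letters for NK2 homeodomains (TCAAGTG or TTAAGTG) were in 7.1% of elements more open and 8.9% of those less open, against 6.7% outside promoters, and the homeodomain core TAATTA in 9.2% and 8.8% against 7.0%. GLI letters, GACCACCCA, were in 0.2% and 0.8%, against 0.5%. POU letters, ATGCAAAT, were in 1.9% and 3.1% against 2.0%. Letters for GATA factors, AGATAAG, searched as a control, were in 4.4% and 3.7% against 3.1%. Those for HNF1, meant as a control, were in none of either called group. They were in only 11 of the 26825 elements outside promoters (0.04%), too rare for their absence to be informative. GC content was 45.9% at the median in elements more open and 45.8% in those less open in p3, below the 49.7% of tested elements outside promoters and the 51.7% of all tested. The part of base composition in these shares was not tested.

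**Figure D4:**
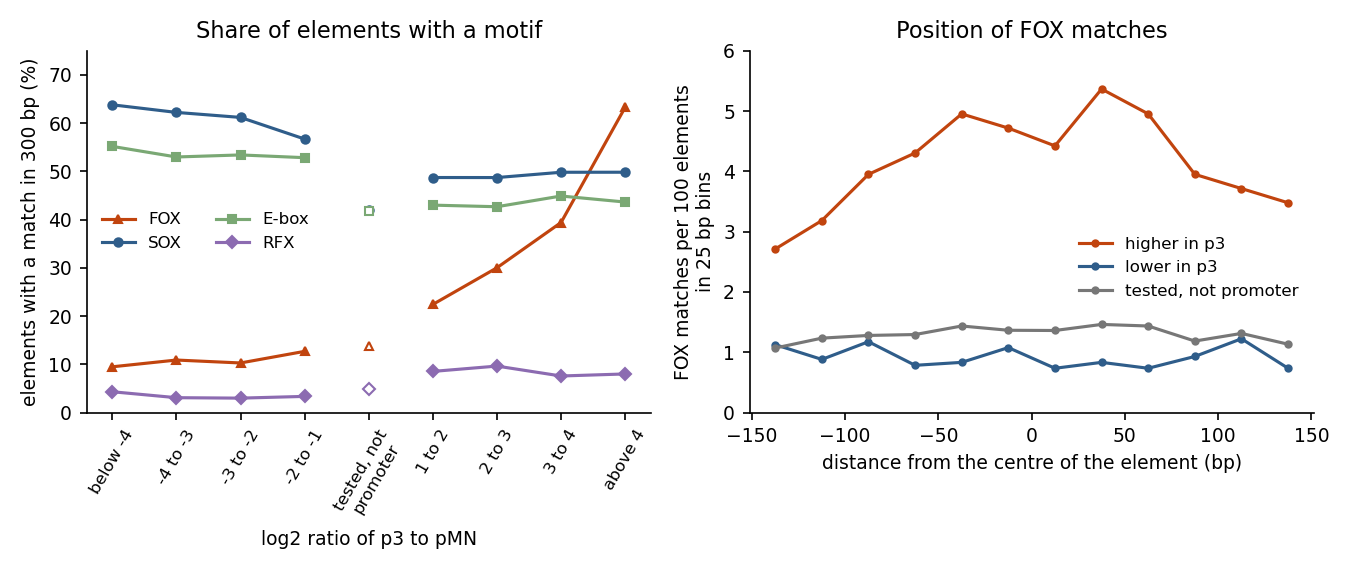
Left, percent of elements with FOX, SOX, E-box or RFX letters in their central 300 bp, by range of the log2 ratio of p3 to pMN, with tested elements outside promoters as open symbols. Right, FOX matches per 100 elements by distance from the center in bp, with the share of elements holding FOX letters rising to 63.3% above a log2 ratio of 4 on the left and a broad maximum about the center for elements more open in p3 on the right.

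The same comparison at earlier days, from separate samples, asked when the differences arose. With the same thresholds 387 of 29636 elements were called at day 4 (1.31%), 56 more open in p3 (0.189%) and 331 less open (1.12%). At day 5 it was 1839 of 31887 (5.77%), 644 more open (2.02%) and 1195 less open (3.75%). Elements called at day 5 were mostly called again at day 6. Of the 644 more open in p3, 590 (91.6%) were among the 1696 of day 6, of which they made 34.8%, and of the 1195 less open 889 (74.4%) were among the 2043, or 43.5%. No element was called in opposite directions on these days. For day 4 the overlap was 47 of 56 and 157 of 331, or 2.77% and 7.68% of the day 6 calls. The days also differed in samples, 11 at day 4, 10 at day 5 and 8 at day 6. At day 4, p3 at 100 nM had 9298160 and 9577692 reads in replicates 1 and 2, fewer than any of the 8 samples of day 6. What part depth and sample number had in the counts was not tested. Elements below the count limit on the earlier day could not be called there. Of the 1696 and 2043, 974 and 1516 were tested at day 5, and 505 and 887 at day 4. An adjusted p under 0.01 in the same direction, without the 4-fold limit, was found at 967 and 1510 of those at day 5. At day 4 it was 343 and 757. The median VST difference of the elements more open in p3 at day 6 was 0.86 at day 4, 1.93 at day 5 and 2.59 at day 6, and that of the less open ones -0.98, -1.93 and -2.38. The elements were chosen for their values at day 6, so the medians of that day are a description.

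The 2 groups of elements differed in which type changed with time. Elements more open in p3 had a median of 10.4 normalized counts in NMPs at day 3. In p3 it was 90.9 at day 4, 187 at day 5 and 289 at day 6, and in pMN the median was 38.3, 38.1 and 38.3. Elements less open in p3 had a median of 12.3 in NMPs, and here pMN changed, with 109, 253 and 333 on the 3 days, while p3 had 45.1, 55.5 and 52.4. Between days 4 and 6, VST values went up by more than 1 in p3 at 1264 of the 1696 elements more open in p3 (74.5%), and in pMN at 1365 of the 2043 less open in p3 (66.8%). In the former group pMN went up by more than 1 at 171 (10.1%) and fell by more than 1 at 248 (14.6%). In the latter group p3 went up by more than 1 at 462 (22.6%) and fell by more than 1 at 340 (16.6%). Values of day 6 chose the elements, so these courses are a description.

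**Figure D5:**
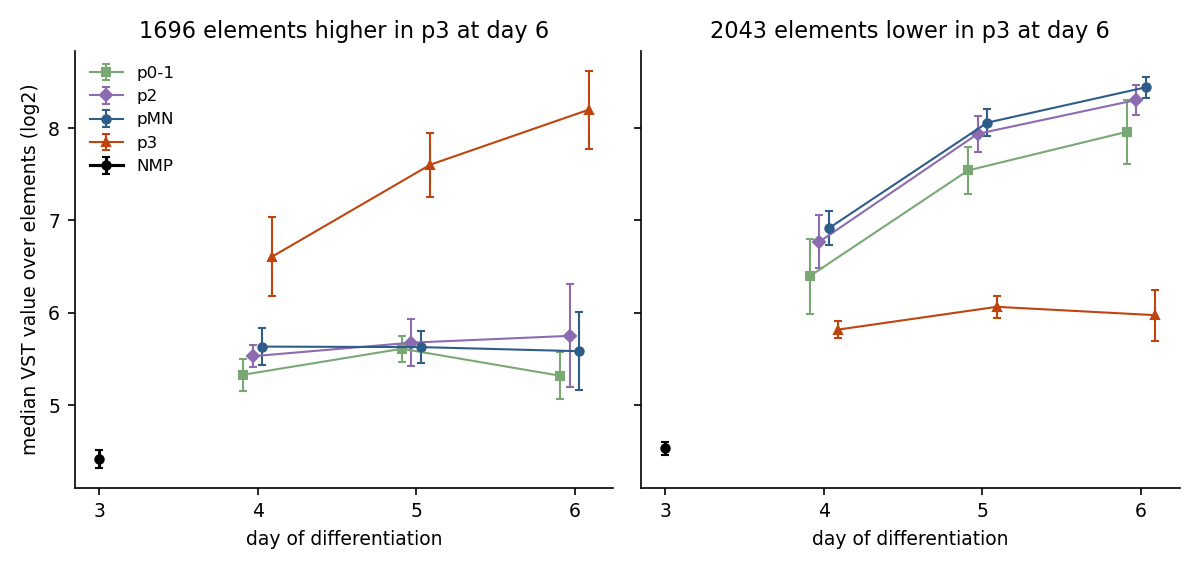
Median VST value (log2) over the 1696 elements more open and the 2043 less open in p3 at day 6, as the mean of the sample medians with SD over 3 to 6 samples, for NMPs at day 3 and for p0-1, p2, pMN and p3 at days 4 to 6. SAG concentrations, which differ between the types, are pooled within each type. On the left p3 climbs from 6.61 to 8.20 while the other types of days 4 to 6 lie between 5.32 and 5.75, and on the right p0-1, p2 and pMN climb together, pMN to 8.44, while p3 stays at 5.97.

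The types p2 and p0-1 of day 6 were nearer to pMN than to p3 at most called elements. At elements more open in p3, p2 was nearer to pMN at 1694 of 1696 (99.9%) and p0-1 at 1670 (98.5%). At elements less open in p3 it was 1818 of 2043 (89.0%) for p2 and 1378 (67.4%) for p0-1, so 665 of these elements in p0-1 were nearer to p3. Median counts at the less open elements were 309 in p2, 246.5 in p0-1, 333 in pMN and 52.4 in p3. Because values of pMN and p3 chose the elements, these shares are a description. SAG also differed, at 10 and 100 nM in p2 and 0 and 10 nM in p0-1, and its part was not tested.

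Whether the difference between types itself changed was tested between days. An element counted as changed where the adjusted p was below 0.01 and the difference moved by more than 1 on the VST scale. From day 5 to day 6 this was so at 34 of 32758 elements (0.104%), 12 in the direction of p3 and 22 in that of pMN. The number rested on single samples. It was 112 without p3 at 100 nM, replicate 2, 28 without pMN at 100 nM, replicate 2, and between 6 and 15 without any of the other 6, and it was 638 with replicate number as a block, or 308 with the block by the numbers in the sample descriptions, which pair the day 5 samples of the concentrations differently. From day 4 to day 6 the difference changed at 3039 of 31716 elements (9.58%), 1238 in the direction of p3 and 1801 in that of pMN, and the former number was 784 and 790 without p3 replicate 3 at 100 nM and at 500 nM. With samples centered on their medians these were 1605 and 1453, so the balance of directions depended on the scaling. Among the strongest from day 5 was an element in intron 15 of Cntnap2, a neurexin family gene, with 648, 643, 552 and 546 counts in pMN and 74.2, 66.1, 70.4 and 44.7 in p3 at day 6. Its log2 ratio was -0.72 at day 4, -1.65 at day 5 and -3.23 at day 6 (adjusted p = 0.00179 for day 6 against day 5). An element in intron 1 of Pipox, an amino acid oxidase gene, had -0.23, -0.78 and -1.94. In contrast, an intergenic element near Chd7, a chromatin remodeler gene, was lower in p3 at day 4 (-1.55) and day 5 (-0.96) but not at day 6, where the log2 ratio was 0.51 (adjusted p = 0.0173). An intergenic element near Tmem132e had -1.51 at day 5 and -0.02 at day 6.

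Named loci followed the same course to different extents. The Foxa2 promoter had log2 ratios of 0.57 at day 4, 1.72 at day 5 and 2.59 at day 6, a change since day 4 of 1.87 on the VST scale (adjusted p = 2.13e-04). For the element in intron 3 of Gli3 they were 0.73, 2.30 and 3.58 (adjusted p = 4.48e-05 against day 4), and for the Ferd3l promoter 1.73, 3.93 and 4.23. The Olig2 element 52.0 kb upstream was already at -2.57 at day 4, and reached -3.91. Against day 5 none of these 4 changes passed, with adjusted p between 0.0528 and 0.760.

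The SAG concentration was tested as a modifier of the difference between types. No element of 33667 was called with limma for an interaction of type and SAG, with or without a block for replicate number. An unadjusted p under 0.05 was found at 139 (0.413%), or at 526 with the block, fewer than the 5% that chance gives. The test was therefore conservative, and the lack of calls does not show that SAG left the difference unchanged. The smallest p belonged to the Olig1 element at chr16:91301030-91302255. It had 2254, 2728, 2369.8 and 2574 counts in pMN and 607, 574, 151 and 158 in p3. In p3 both samples at 500 nM were below both at 100 nM by more than 3-fold, while in pMN the concentrations overlapped, and the interaction was -1.84 on the VST scale (adjusted p = 0.446). With 2 samples per type and concentration, 3457 elements were called at 100 nM and 2200 at 500 nM, of which 1804 were shared, or 52.2% and 82.0%. All 3115 of the 100 nM calls that were tested at 500 nM had the same direction there, with median absolute log2 ratios of 2.72 and 2.79. Both concentrations came from the same 2 differentiations, so this agreement is not an independent check.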

How the data were processed

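Read counts per element had been variance-stabilized by the authors with DESeq2, and the deposited values are on a log2 scale (VST). The submitters' processing notes name MACS, DESeq2 and mm10 without versions. Elements carried the study's annotation, with gene names by nearest transcription start site and RefSeq GRCm38 sequence.

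Whole reads and size factors were recovered exactly by inverting the VST, and normalized counts are reads over size factors. Of 111638 elements, those with a mean above 100 normalized counts over the samples compared were tested on VST values with limma 3.58.1 (R 4.3.3, moderated statistics with a variance trend), with cell type and SAG as terms and Benjamini-Hochberg adjustment over all tested elements. Calls needed an adjusted p under 0.01 and a log2 ratio of mean normalized counts beyond 2. All adjusted p values come from limma. Interactions were fitted with limma over the same cell types at both SAG concentrations or at both days. The same test on simulated counts recovered 88 of 88 elements changed 6-fold and 88 of 88 changed 16-fold, with 0 false calls. Changed elements that fell below the count limit are not among these. The simulated counts were drawn independently for each sample, without an effect of differentiation, so they give no error rate for the paired samples. Other steps used Python 3.11.15 with numpy 2.4.6, pandas 2.3.3, scipy 1.17.1 and pysam 0.24.0.

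Named elements are the 8 highest and 8 lowest called log2 ratios, for each list gene its most unequal called element, promoters of 4 patterning genes, the strongest interactions, and, chosen after values were seen, the element nearest the start site of genes without a tested promoter. Other elements of the same loci are given beside these. The comparison and the gene lists were chosen with earlier results of these data known. Replicate numbers were taken to pair samples, since deviations from group means correlated at 0.463 to 0.850 over the 6 pairs of groups. The numbers are those of the titles. Descriptions number some groups otherwise, and a block by those numbers was added after seeing the data. Depth is the sum of recovered reads, and the number of samples limits precision. Some listed genes and sequences are not reported here.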

Additional observations from a re-analysis of the deposited data

Results flagged for a closer look

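Among the named elements, 1 sample stood apart from the other 3 of its type in 3 of the 194 groups of 4 samples examined, where chance gives about 5%. The Irx3 element at chr8:91996418 had 1768 normalized counts in pMN at 100 nM, replicate 2, and 1256 to 1310 in the other pMN samples. Near Hes5, the element at chr4:154956776 had 31.5 counts in p3 at 100 nM, replicate 3, and 19.8 to 20.8 in the others. The Epha5 element at chr5:85239437 had 107 counts in p3 at 500 nM, replicate 3, and 182 to 194 in the others.

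The difference between p3 and pMN changed between days, by the test of the change itself, at 34 elements from day 5 to day 6 and at 3039 from day 4 to day 6. Of the 1721 elements among the latter that were tested at both days, 1597 had the larger log2 ratio in absolute size at day 6 and 386 had opposite signs on the 2 days.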

How the results depend on the processing

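With a fold change above 2 in place of 4, 8487 elements were called, with no filter on the mean 16269, with a mean above 50 normalized counts 7220, and with the 500 nM samples alone 2200. In the other alternatives with all 8 samples or with 100 nM alone the count was between 3253 and 3784. Apart from a limit set on the VST difference and from 100 nM alone, these kept the 4-fold limit on the same normalized counts. Only the adjusted p could move there, so a count near 3739 was largely fixed in advance. Leaving out each sample in turn gave 3104 to 4175. For day 6 against day 5, no filter gave 115 calls and leaving out single samples 6 to 112. For day 6 against day 4 these were 14498 and 2379 to 3374. The replicate block, which pairs samples of the same differentiation, gave 3784 calls at day 6 in place of 3739, 638 against day 5, 4154 against day 4 and 0 for SAG, or 308 and 3930 against days 5 and 4 with the numbers of the descriptions (an alternative chosen after seeing the data), and with the title numbers it changed the call of none of the 97 named elements.

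In the central 200 bp, FOX letters were in 28.9% of elements more open and 6.66% of those less open in p3, SOX letters in 36.8% and 49.4%, E-box letters in 30.5% and 40.4% and RFX letters in 5.90% and 1.96%. Among elements beyond 2-fold, FOX letters were in 30.5% of those more open and SOX letters in 58.6% of those less open, and 2.09% of promoters and 31.1% of other elements were called.

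Of the 97 named elements, 74 kept their side of the threshold under all 24 alternatives in which they were tested and 0 reversed. In alternatives that kept the same normalized counts for the fold change, only the adjusted p could end a call. The 500 nM samples alone ended most calls, 21. The Shh element 9.6 kb upstream lost its call in 8 alternatives, with adjusted p between 0.0109 and 0.128 there. Depth limits the largest ratios, whose lower type held few reads, at most 7.01 normalized counts in any pMN sample at the element nearest Gm8096. With centering on sample medians the changes from day 5 split into 22 in the direction of p3 and 20 in that of pMN, with the block into 318 and 320.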
